A study of Mus musculus with 4 samples.

Results

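The genes described here handle iron and heme. They were taken by name, 10 of the 35869 genes listed in the files, and all 10 passed the filter that left 16849 genes for the test. Ftl1 and Fth1 encode the ferritin subunits that store iron. Tfrc, Slc11a1 and Slc11a2 bring iron into the cell or out of its vesicles, Slc40a1 and Cp let iron out, and Hmox1 breaks heme down. Hp and Lcn2 are secreted proteins that bind hemoglobin and iron-loaded siderophores. RNA-seq was run on CD45+ cells, the leukocytes, isolated with microbeads from the epididymal white adipose tissue (eWAT) of male WT C57BL/6 mice. The mice were fed either a normal diet (ND) or a high-fat diet (HFD) for 12 weeks, starting at 8 weeks of age, and each diet had 2 libraries. C57BL/6 mice, and so both diets, carry a loss-of-function allele of Slc11a1. The number of mice behind each library is not given in the sources used here, so the spread between the 2 libraries of a diet may be technical.

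Cells take up iron mostly as transferrin bound to the transferrin receptor. The iron is then used in heme and iron-sulfur clusters, locked into ferritin, or exported through ferroportin, the product of Slc40a1 and the only known iron exporter of mammalian cells. Macrophages also recover iron from the hemoglobin of old red blood cells. Heme oxygenase 1, the product of Hmox1, opens up the heme of that hemoglobin to release the iron. In adipose tissue, a population of resident macrophages is known for a high iron content.

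Part of this control acts on the transcripts themselves. Iron regulatory proteins bind a hairpin called the iron-responsive element (IRE) when iron is low. In a 5′ UTR the bound hairpin blocks translation, while in a 3′ UTR it protects the transcript from decay. The UTRs of GENCODE vM21 protein-coding transcripts were therefore searched for an IRE-like hairpin, a C followed by 5 bases, the loop CAGTGN and 5 bases that pair with the first 5. Such a hairpin was found in the 5′ UTR of 3 of the genes and in the 3′ UTR of Tfrc, which held 4. Over all genes with an annotated 5′ UTR, 0.148% had a match there, and over all genes with a 3′ UTR 0.613% had one. The 7 matches are shown because they split the matched genes by how the hairpin acts. In Tfrc it can protect the RNA level. In the other 3 it acts on translation, which RNA-seq does not measure. The pattern fixes the loop and needs all 5 bases of each side to pair. A gene without a match, Slc11a2 among them, may therefore still hold an IRE. The 6 loop bases are in capitals, each match is read from the GENCODE vM21 transcripts in the direction of the gene, and positions are on GRCm38 (mm10).
Ftl1, 5′ UTR, chr7:45459778-45459807, minus strand: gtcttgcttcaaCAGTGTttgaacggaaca
Fth1, 5′ UTR, chr19:9982732-9982761, plus strand: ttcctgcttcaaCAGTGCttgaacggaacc
Slc40a1, 5′ UTR, chr1:45925464-45925493, minus strand: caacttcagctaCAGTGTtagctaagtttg
Tfrc, 3′ UTR, chr16:32631219-32631248, plus strand: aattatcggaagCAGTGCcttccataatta
Tfrc, 3′ UTR, chr16:32631598-32631627, plus strand: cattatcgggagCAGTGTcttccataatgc
Tfrc, 3′ UTR, chr16:32631663-32631692, plus strand: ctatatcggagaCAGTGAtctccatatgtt
Tfrc, 3′ UTR, chr16:32631710-32631739, plus strand: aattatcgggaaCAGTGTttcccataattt

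Before the comparison, the libraries were checked for how far they can be taken as leukocytes. Ptprc, the gene of CD45, had 53.7 to 59.4 TPM in all 4 libraries. The HFD libraries were less alike than the ND libraries, with 1933 of the tested genes at least 2-fold apart between them against 175 between the ND libraries. HFD replicate 1 held 6108 TPM of 4 spermatid genes, where the other libraries held 1644 to 1910 TPM, and 0 of the 4 were called between the diets. HFD replicate 2 held 4066 TPM of 4 fibroblast genes (2 called higher on HFD), against 2059 TPM in HFD replicate 1 and 418 and 448 TPM on ND. Values with one of these libraries left out are therefore given below where they differ most. With 1 HFD library left, the spread in limma comes from the ND pair alone, which was the more alike, and the lone HFD library is assumed to vary like it, so a call gained in such a fit is weak.

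Between the diets, 3 of the 10 genes were called, all lower on HFD. These were Slc40a1, Tfrc and Lcn2. A gene was called when limma gave a Benjamini-Hochberg adjusted p-value under 0.05 over all genes tested and the fold change reached 1.5. The same rule called 18.4% of all genes tested, 10.3% as lower and 8.08% as higher on HFD. Both HFD values lay below both ND values for 5 of the 10 genes and above them for 4, where this held for 32.8% and 34.1% of all genes tested. The median log2 fold change of the 10 genes was -0.16, and that of all genes tested was 0.06. An exact two-sided permutation test of 2 values against 2 cannot give a p below 0.333, which 9 of the 10 genes reached, so the adjusted p-values below rest on the spread that limma pools over genes. Without ND replicate 1 or without ND replicate 2, 0 of the 10 genes and 0 of all genes were called in limma, with 3862 and 4024 of all genes at an unadjusted p under 0.05, and the directions of Slc40a1, Tfrc and Lcn2 stayed the same.

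**Figure D1:**
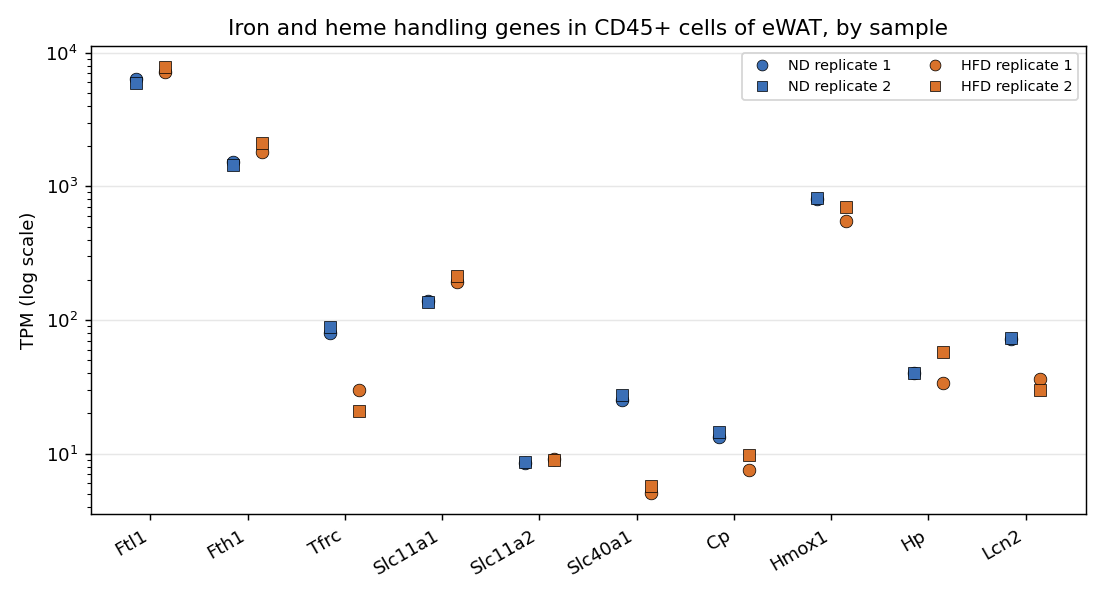
TPM on a log axis for each of the 10 genes, with 1 point per library, ND in blue and HFD in orange, circles for replicate 1 and squares for replicate 2. Slc40a1 sits at 25 and 27.3 TPM on ND and at 5.1 and 5.7 TPM on HFD, while the points of Slc11a2 lie within 8.5 to 9.1 TPM.

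The ferritin transcripts were among the most abundant of these cells. Ftl1, on the minus strand of chromosome 7 from 45457944 to 45459884, encodes the light chain, which helps to lay down the iron core. It had 6315 and 5884 TPM on ND and 7148 and 7784 TPM on HFD. Ftl1 ranked 8 among all genes in both ND libraries and 2 in both HFD libraries. Fth1, on the plus strand of chromosome 19 from 9980598 to 9985098, encodes the heavy chain, whose ferroxidase activity oxidizes the iron for storage. It had 1513 and 1436 TPM on ND and 1807 and 2106 TPM on HFD. For both genes the diets did not overlap, but neither was called. The mean of Ftl1 was 6100 ± 305 TPM on ND and 7466 ± 450 TPM on HFD (SD, n = 2 each). This was 0.29 on the log2 scale, with a 95% interval from 0.09 to 0.49 (adjusted p = 0.0591 in limma). The log2 fold change of Fth1 was 0.40, with an interval from 0.12 to 0.69 (adjusted p = 0.0598 in limma). Fth1 rested in part on 1 library, with 0.51 without HFD replicate 1 (adjusted p = 0.0484 in limma) and 0.29 without HFD replicate 2 (adjusted p = 0.0688). The intervals from all 4 libraries lie above 0, and that of Ftl1 ends below the change of 1.5-fold that the call needs.

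TPM is per length, so the 2 subunits can be set side by side as far as the lengths used are right, and these are not given in the sources used here. In GENCODE vM21 Fth1 has 3469 exon bases but a longest coding transcript of 1494 bases, and Ftl1 has 1340 and 968, so the ratio of the subunits depends on that choice while its comparison between diets does not. The TPM of Ftl1 was above that of Fth1 in every library, by 4.18 and 4.10 times on ND and by 3.96 and 3.70 times on HFD. The ratio was thus lower in both HFD libraries than in both ND libraries, by less than the difference between the subunits themselves. Together the subunits held 0.783% and 0.732% of all TPM on ND and 0.896% and 0.989% on HFD. Ferritin genes have many processed copies in the mouse genome. Under symbols that start with Fth or Ftl, the files list Fth1, Ftl1 and 7 entries of the Fthl17 family. Of these 7 only Fthl17a was above 0, at 0.1 to 1.8 TPM. Another ferritin gene, Ftmt, had 6.5 TPM in both ND libraries and 15.9 and 3.8 TPM on HFD. Reads that map equally well to a processed copy may have been dropped or split, so the levels of Ftl1 and Fth1 are uncertain.

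Of the uptake genes, Tfrc was lower on HFD. Tfrc, on the plus strand of chromosome 16 from 32608920 to 32632794, encodes the transferrin receptor, and its 3′ UTR holds the 4 hairpins shown above. It had 80.0 and 88.9 TPM on ND and 30 and 21 TPM on HFD, with no overlap between the diets. The mean was 84.5 ± 6.29 TPM on ND and 25.5 ± 6.36 TPM on HFD (SD, n = 2 each), 3.31-fold lower on HFD. On the log2(TPM + 1) scale, on which all fold changes here were fitted, the difference was -1.71 (standard error 0.20, adjusted p = 0.0180 in limma). The HFD libraries differed in Tfrc, and leaving out HFD replicate 1 gave -1.96 where leaving out HFD replicate 2 gave -1.46.

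The SLC11 transporters move iron out of vesicles, Slc11a1 from the phagosomes of macrophages and Slc11a2 (DMT1) from endosomes, where it carries the iron that transferrin delivered. Slc11a1, on chromosome 1 from 74375195 to 74386062, had 139.9 and 136.4 TPM on ND and 193.6 and 213.6 TPM on HFD. Both HFD values were above both ND values. Its log2 fold change was 0.55 (95% interval 0.36 to 0.75, adjusted p = 0.0180 in limma). It was not called, since the means differed by 1.47-fold, just under the limit. Over the other settings tried, its adjusted p in limma ran from 0.0119 to 0.101. It also missed the p-value limit with median-ratio scaling (0.101) and with a replicate block (0.0689). Without HFD replicate 1 the log2 fold change was 0.63 and the gene passed the fold limit, with the spread taken from the ND libraries alone. Slc11a2, on chromosome 15 from 100387898 to 100425072, had the smallest difference of the 10. It had 8.5 and 8.7 TPM on ND and 9.1 and 9.0 TPM on HFD. The fitted difference was 0.07, with an interval from -0.15 to 0.28, which leaves out changes of 1.5-fold in either direction (adjusted p = 0.549 in limma). Slc11a1 was 16.5 and 15.7 times as high as Slc11a2 on ND and 21.3 and 23.7 times as high on HFD.

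The largest difference of the 10 was in the exporter. Slc40a1, on the minus strand of chromosome 1 from 45908068 to 45926523, had 25 and 27.3 TPM on ND and 5.1 and 5.7 TPM on HFD. By the depth of the libraries this was about 1200 and 1500 reads on ND against 280 and 270 on HFD. The mean fell from 26.2 ± 1.63 TPM to 5.40 ± 0.424 TPM (SD, n = 2 each), 4.84-fold. In limma this was a log2 fold change of -2.09 (SE 0.09, adjusted p = 0.00530), larger than the spread within either diet. It was -2.15 to -2.02 when one library was left out in turn. Together with the ferritin values, the TPM of Ftl1 was 253 and 216 times that of Slc40a1 on ND, and 1402 and 1366 times on HFD.

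Ferroportin works with a ferroxidase that oxidizes the iron as it leaves, and ceruloplasmin, the product of Cp, is the one in plasma and on some cells. Cp, on the plus strand of chromosome 3 from 19957054 to 20009145, had 13.4 and 14.6 TPM on ND and 7.6 and 9.7 TPM on HFD. Both HFD values were below both ND values. The log2 fold change was -0.64 (95% interval -1.08 to -0.21, adjusted p = 0.0562 in limma), so Cp was past the fold limit but not the p-value limit. Without HFD replicate 2 it was -0.80, which was called against the spread of the ND libraries alone, and without HFD replicate 1 it was -0.49. Cp shares 108 exon bases with Hps3 on the other strand. Hps3 had 8.8 and 9.7 TPM on ND and 5.2 and 4.9 TPM on HFD. The library kit keeps the strand, but whether counting used it is not given in the sources used here, and the part of Hps3 reads in the Cp values was not tested.

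**Figure D2:**
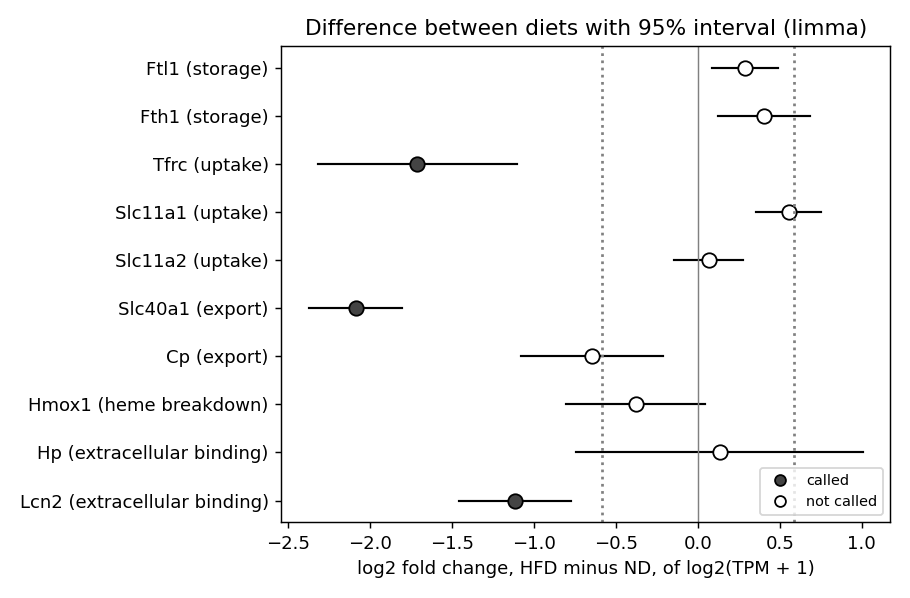
Log2 fold change between HFD and ND for the 10 genes (points) with the 95% interval from limma (bars). Filled points were called, dotted lines mark 1.5-fold in either direction. Slc40a1, Tfrc and Lcn2 lie wholly to the left of the dotted line, and the interval of Hp, from -0.74 to 1.01, is the widest.

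Heme breakdown showed no called difference in its inducible enzyme. Hmox1, on the plus strand of chromosome 8 from 75093621 to 75100589, had 805 and 812 TPM on ND and 548 and 704 TPM on HFD. The ND libraries were nearly equal and both HFD libraries were below them, by unequal amounts. The log2 fold change was -0.38 (95% interval -0.80 to 0.05, adjusted p = 0.145 in limma). Leaving out HFD replicate 1 gave -0.20, and leaving out HFD replicate 2 gave -0.56. Hmox2, the constitutive form, had 79.1 and 83.1 TPM on ND and 93.2 and 69.7 TPM on HFD. Hmox1 was thus 10.2 and 9.77 times as high as Hmox2 on ND, 5.88 times in HFD replicate 1 and 10.1 times in HFD replicate 2.

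Transcripts of hemoglobin, the source of most heme that macrophages handle, were themselves in the libraries. The 4 hemoglobin genes of the erythroid marker list summed to 1799 and 1733 TPM on ND, and to 864 and 1495 TPM on HFD, and 0 of these 4 were called. HFD replicate 1 was thus the lowest library in hemoglobin, as in Hmox1, Cp, Hp and, by a small margin, Slc40a1, and the part of red blood cells in these values was not tested. Slc4a1 and Epb42, which define erythroid precursors, were at 0 to 0.2 TPM in every library.

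Of the 2 secreted binding proteins, Lcn2 fell on HFD and Hp did not differ in a consistent direction. Lcn2 (lipocalin 2), on the minus strand of chromosome 2 from 32384633 to 32388252, withholds iron from bacteria by binding their siderophores. It had 71.5 and 72.8 TPM on ND and 36.2 and 29.8 TPM on HFD. The mean was 72.2 ± 0.919 TPM on ND and 33.0 ± 4.53 TPM on HFD (SD, n = 2 each), 2.19-fold lower on HFD. The log2 fold change was -1.11 (standard error 0.11, adjusted p = 0.0140 in limma), and it lay from -1.25 to -0.98 with one library left out in turn. Lcn2 is also a granule protein of neutrophils. In the list of 8 neutrophil genes, 5 were tested and 4 of these were called, all lower on HFD, beside 10.3% of all genes tested. Ltf was tested but not called, with 1.6 TPM in both ND libraries and 1.9 and 1.1 TPM on HFD. The list summed to 72.1 and 95.7 TPM on ND and 30.2 and 31.5 TPM on HFD. Ly6g, Ngp and Camp, which define neutrophils and their precursors, were at 0 to 0.5 TPM. The part of neutrophils in the fall of Lcn2 was not tested.

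Hp (haptoglobin), on the minus strand of chromosome 8 from 109575128 to 109579172, captures free hemoglobin. It had 40.2 and 39.9 TPM on ND, and 33.7 and 57.4 TPM on HFD. The HFD libraries therefore lay on both sides of the ND libraries, and Hp was the only one of the 10 genes whose diets overlapped. Its log2 fold change was 0.13 (95% interval -0.74 to 1.01, adjusted p = 0.764 in limma). With HFD replicate 1 left out it was 0.51 and with HFD replicate 2 left out -0.24, so the direction rests on 1 library. Adipocytes also make Hp. The 5 adipocyte marker genes summed to 46.3 and 44.1 TPM on ND and to 21 and 14 TPM on HFD, with 1 called higher (Lep) and 1 called lower (Cfd). Most of that drop was Cfd, with 26.3 and 24.6 TPM on ND and 0.9 and 0.3 TPM on HFD. Adipoq had 4.2 to 12.4 TPM, and the part of adipocytes was not tested.

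The order of the 10 genes by TPM was the same in both ND libraries, from Ftl1, Fth1, Hmox1 and Slc11a1 through Tfrc, Lcn2, Hp, Slc40a1 and Cp down to Slc11a2. No neighbours in that order had overlapping values on ND. In HFD the leading 4 genes kept their places. Below them the values of Hp overlapped with those of Lcn2, those of Lcn2 with those of Tfrc, and those of Slc11a2 with those of Cp. Slc40a1 was the lowest of the 10 in both HFD libraries.

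Other genes of iron and heme metabolism gave a mixed picture. Of 57 listed, 49 were tested and 10 were called, 7 higher and 3 lower on HFD, beside the 8.08% and 10.3% of all genes tested. Their median log2 fold change was 0.23. In heme and hemoglobin uptake and transport, 9 genes were tested. Cd163, a receptor for hemoglobin, fell from 201 and 212 TPM on ND to 38.6 and 20.4 TPM on HFD. Its log2 fold change was -2.83 (adjusted p = 0.0187 in limma). Lrp1, which takes up heme bound to hemopexin among many other ligands, rose from 288 and 318 TPM to 750 and 787 TPM. Slc48a1, which carries heme out of the lysosome, rose from 196 and 197 TPM to 310 and 322 TPM (limma log2 fold change 0.68 with adjusted p = 0.00647). Flvcr1, a heme exporter listed under its older symbol Mfsd7b, had 13.3 and 14.9 TPM on ND and 22.5 and 19.9 TPM on HFD and was not called (log2 fold change 0.56).

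Among the heme synthesis genes, Alas1, the rate-limiting enzyme outside red blood cells, rose from 32.1 and 32.8 TPM on ND to 124.5 and 129.7 TPM on HFD, which gave 1.94 on the log2 scale (SE 0.05, adjusted p = 0.00387 in limma), the largest increase in the list. The erythroid form Alas2 had 4.2 and 4.5 TPM on ND and 1.8 and 3.7 TPM on HFD and was not called. In heme breakdown, 2 of 4 genes rose. These were Por, the reductase that feeds electrons to heme oxygenase and to cytochromes P450 (log2 fold change 1.66), and Blvra, which turns biliverdin into bilirubin (0.93). Blvrb, the other biliverdin reductase, had 281 and 273 TPM on ND and 196 and 231 TPM on HFD and was not called.

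Among the 6 uptake and reduction genes tested, only Steap3 was called, the reductase that prepares endosomal iron for Slc11a2. It rose from 19.5 and 19.3 TPM to 46.0 and 48.4 TPM, a log2 fold change of 1.24 (adjusted p = 0.00530 in limma). Of the 7 mitochondrial genes, Slc25a37 (mitoferrin 1), which brings iron into mitochondria, fell by 0.86 on the log2 scale, and its relative Slc25a28 (mitoferrin 2) had a log2 fold change of 0.30 and was not called. Of the 9 sensing and regulation genes tested, Spic was called, a transcription factor needed for iron-recycling macrophages of the spleen, and it fell from 25 and 27.9 TPM to 6.8 and 8.5 TPM (limma log2 fold change -1.67 with adjusted p = 0.0103). None of the 4 storage and delivery genes and not the 1 export gene tested were called. The hepcidin genes Hamp and Hamp2 had at most 1.2 TPM in any library and were not tested.

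**Figure D3:**
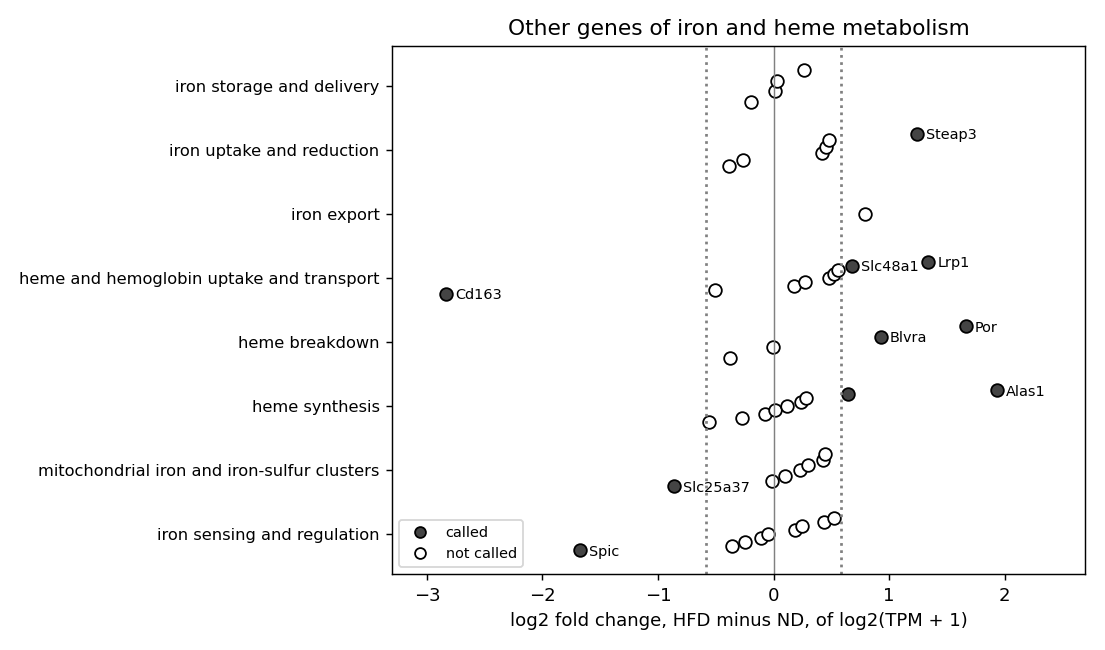
Log2 fold change between HFD and ND for the 49 tested genes of iron and heme metabolism outside the 10, 1 point per gene, in rows by role. Filled points were called and those described in the text are named, dotted lines mark 1.5-fold. Alas1, at 1.94, lies farthest to the right and Cd163, at -2.83, farthest to the left.

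The falls of Slc40a1, Cd163 and Spic came with lower marker genes of resident macrophages. All 5 genes of that list (Timd4, Lyve1, Folr2, Mrc1 and Cd163 itself) were called lower on HFD, and they summed to 2664 and 2776 TPM on ND and 1092 and 960 TPM on HFD. Slc40a1 fell by 2.09 on the log2 scale, between Folr2 (-1.09) and Lyve1 (-2.73). The general macrophage list was split. Its 4 genes summed to 1456 and 1445 TPM on ND and 2202 and 2217 TPM on HFD, with Adgre1 (0.78) and Cd68 (0.86) called higher. Csf1r (-0.56, adjusted p = 0.00929 in limma, short of the fold limit) and Mertk (-0.29) were not called, and both had lower values in both HFD libraries than on ND. The sum was carried mostly by Cd68, with 861 TPM on ND and 1564 TPM on HFD on average. In bulk RNA, fewer cells of a type and less RNA per cell cannot be told apart, and the part of resident macrophages in the fall of Slc40a1 was not tested. Of the remaining lists, the 4 mesothelial genes (0 called) summed to 69.5 and 72.9 TPM on ND and 46.1 and 73.4 TPM on HFD, the 3 endothelial genes (0 called) to 129 and 133 TPM on ND and 169 and 170 TPM on HFD, and the 3 epididymal genes (2 called lower) to 87.9 and 86.3 TPM on ND and 5.3 and 20.1 TPM on HFD.

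**Figure D4:**
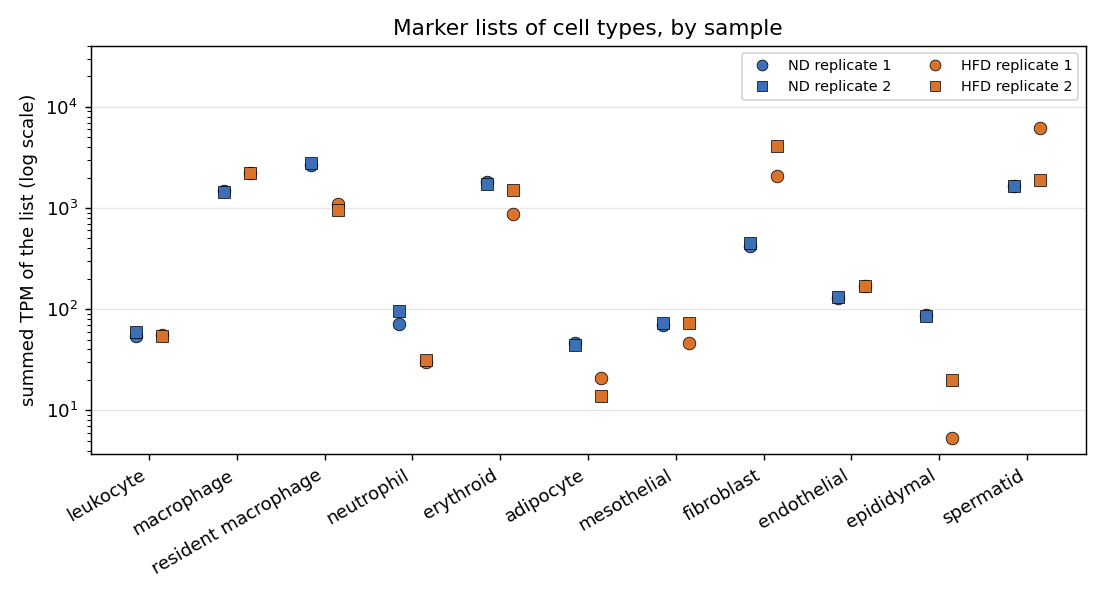
Summed TPM, on a log axis, of the marker genes of each cell type in each library, ND in blue and HFD in orange, circles for replicate 1 and squares for replicate 2. Resident macrophage and neutrophil sums are lower in both HFD libraries, and erythroid genes are lowest in HFD replicate 1, at 864 TPM.

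**Figure D5:**
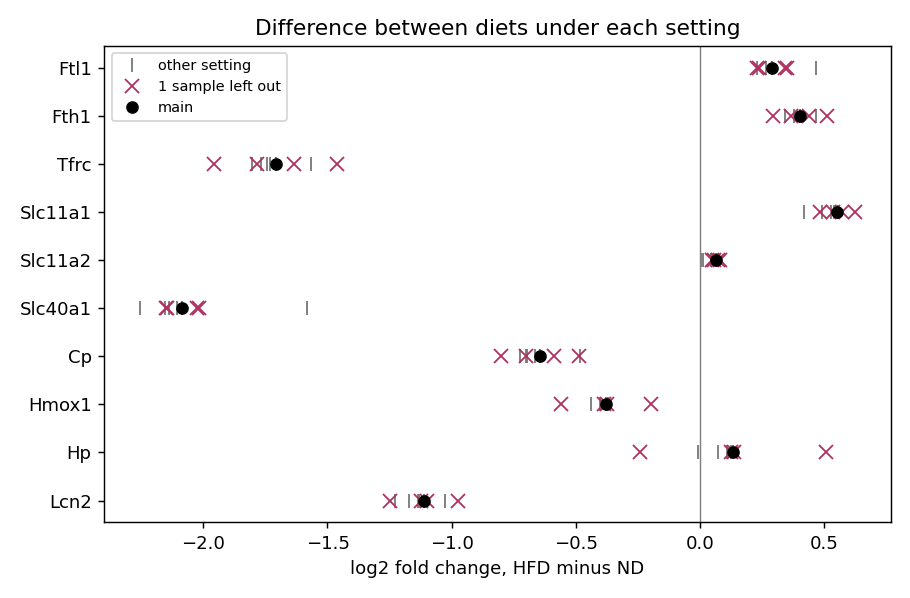
Log2 fold change of each of the 10 genes as reported (black points), under 9 other settings (grey bars) and with 1 library left out (crosses). Hp, from -0.24 to 0.51, is the only gene whose values lie on both sides of 0.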

How the data were processed

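RNA-seq was measured in CD45+ cells of eWAT from ND- and HFD-fed mice, 2 libraries each. The authors deposited TPM, to 1 decimal, after trimming (Trim Galore 0.4.2, cutadapt 1.9.1), alignment to mm10 (STAR 2.6.1e), removal of duplicate reads and counting per gene (featureCounts 1.6.2). Duplicate removal can lower the values of short, abundant transcripts such as Ftl1 and Fth1. The library kit was stranded. The annotation, gene lengths and strand setting of the counting are not given in the sources used here. TPM are shares, so a gene can fall because others rose.

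Genes reaching 1 TPM in 2 or more samples (16849) were compared as log2(TPM + 1) with limma 3.58.1 (R 4.3.3, eBayes with a variance trend, Benjamini-Hochberg adjustment). The added 1 shrinks the fold changes of low genes. The steps were tested on simulated data. Depth was estimated from microRNA genes, whose TPM times length fell on whole multiples of 0.0607 to 0.0711 TPM per read and kb. Read numbers use the longest coding transcript in GENCODE vM21 and are approximate. The 10 genes have at least about 270 reads in each library.

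The genes and lists were chosen with earlier results of these data known. All 10 genes were named. Of the other pathway genes, up to 3 called genes per role with the largest fold changes and no overlap between diets were named, with Cd163, Slc48a1 and Flvcr1 whatever their values. The others named here (Hmox2, Alas2, Blvrb, Slc25a28, Hamp, Hamp2, Trf, Ftmt, Nqo1 and Nfe2l2) were chosen after their values were seen. Some genes of the lists are not reported here. Figures were drawn with matplotlib 3.10.9.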

Additional observations from a re-analysis of the deposited data

How the results depend on the processing

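Of the 10 genes, 3 were called, and this number was 3 or 4 under the other pseudocounts, filters, scalings and fold limits tried. It was 0 to 4 with 1 library left out. Without ND replicate 1 or ND replicate 2, 0 genes of all tested were called, although 3862 and 4024 had an unadjusted p under 0.05 in limma, since the spread then comes from the HFD libraries alone and the lone ND library is assumed to vary like them. The log2 fold changes of Slc40a1, Tfrc and Lcn2 kept their direction in all of these fits. The fourth gene was Slc11a1 with no fold limit or without HFD replicate 1, and Cp without HFD replicate 2, where the spread comes from the ND libraries alone. Cp was also called with a mean TPM of at least 5 (adjusted p = 0.0425) and after rescaling without the 50 most abundant genes (adjusted p = 0.0446). Other settings moved Cp away from a call, with an adjusted p in limma of 0.107 under median-ratio scaling and 0.103 with no filter. Hp changed direction after quantile normalization, to -0.0069, and ran from -0.24 to 0.51 with 1 library left out.

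The adjusted p-values of Ftl1 and Fth1, 0.0591 and 0.0598, ran from 0.00203 to 0.420 and from 0.00866 to 0.269 over the other settings, and quantile normalization gave the lowest of each and median-ratio scaling the highest. Neither gene was called in any fit. The cause was not tested. The ferritin transcripts held 0.757% of TPM on ND and 0.942% on HFD on average, or 0.974% and 1.16% of the total without the 50 most abundant genes.

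Over all genes tested, 3097 were called. This number was 2015 with a pseudocount of 5, 1602 with a limit of 2-fold and 0 to 4232 with 1 library left out. Of the other pathway genes, 10 were called, 6 with a limit of 2-fold, 20 with no fold limit and 0 to 13 with 1 library left out.

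The labels number the libraries 1 and 2 in both diets. Deviations from the diet means of same-numbered libraries had a correlation across genes of -0.015, so they were not taken as paired. With a replicate block, 812 genes and 1 of the 10, Slc40a1 (adjusted p = 0.0449), were called, with adjusted p-values of 0.0626 for Tfrc and 0.0546 for Lcn2.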

Other observations

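Ftl1, Fth1 and Hmox1 are also targets of NRF2, the transcription factor of the antioxidant response encoded by Nfe2l2. Of 8 NRF2 targets outside iron handling, 7 were tested and 3 were called, all higher on HFD, beside 8.08% of all genes tested. Prdx1, a peroxidase, rose from 487 and 505 TPM on ND to 1281 and 1645 TPM on HFD (limma log2 fold change 1.55 with adjusted p = 0.0120). Srxn1, which repairs peroxiredoxins, rose from 103 and 109 TPM to 220 and 281 TPM (1.22), and Txnrd1, a thioredoxin reductase, from 46.9 and 50.4 TPM to 72.2 and 85.1 TPM (0.68). Nqo1, often used as a marker of NRF2 activity, had 7.7 and 6.7 TPM on ND and 5.7 and 8.6 TPM on HFD, and its diets overlapped. Nfe2l2 itself had 196 and 204 TPM on ND and 251 and 290 TPM on HFD and was not called (log2 fold change 0.43, adjusted p = 0.0488, under the fold limit). Of the 7 targets tested, 6 had both HFD values above both ND values, where this held for 34.1% of all genes tested. Ftl1 (log2 fold change 0.29) and Fth1 (0.40) lay on the same side of 0 as the 3 called targets. Hmox1 (-0.38) lay on the other side. None of Ftl1, Fth1 and Hmox1 was called, and the part of NRF2 in these values was not tested.

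Trf, the gene of transferrin, was the most abundant of the other pathway genes, with 1754 and 1759 TPM on ND and 1460 and 1466 TPM on HFD, above Fth1 on ND and below it on HFD. Its log2 fold change of -0.26 passed the p-value limit (adjusted p = 0.0155 in limma) but not the fold limit.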
